A study of Rattus norvegicus with 26 samples.

Results

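The cation-chloride cotransporter genes Slc12a2, Slc12a4, Slc12a5 and Slc12a7 and the kinase gene Stk39 were described across rat spinal cord RNA sequencing libraries. They were chosen by name and not by a rule on their values, though with earlier results of these data known. They make up 5 of the 32883 genes counted. All 5 passed the filter on low counts, which kept 17990 genes. Spinal cord segments of 5 mm from wild type female Sprague-Dawley rats, labelled postnatal day 70 throughout, gave 26 libraries in 8 groups. The study's methods place the centre of the segments at the lesion epicenter, and the study describes those of Intact as comparable. Intact (4 libraries) was uninjured or sham-operated tissue. Compression with a clip of 60 g for 1 min at the thoracic level T10 preceded every other group. The segment of sub-SCI (3 libraries) was collected 7 days after injury, when mesenchymal stem cells of human umbilical cord (hUC-MSCs) or the PBS vehicle were given into the intrathecal space of the others. The vehicle groups were +PBS-1w (3 libraries), +PBS-2w (2 libraries) and +PBS-4w (4 libraries), and the treated groups were +MSC-1w (3 libraries), +MSC-2w (3 libraries) and +MSC-4w (4 libraries), named by the weeks post-transplantation (wpt). Per the study's methods rats were immunosuppressed daily with cyclosporin A, and the methods do not say whether this covered Intact and sub-SCI. A human xenograft in immunosuppressed rats limits +MSC as a model, and sub-SCI received neither cells nor vehicle.

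Cation-chloride cotransporters move chloride together with sodium and potassium and so set how much chloride a cell holds. NKCC1, the protein of Slc12a2, carries chloride into cells, whereas the potassium-chloride cotransporters KCC1 (Slc12a4), KCC2 (Slc12a5) and KCC4 (Slc12a7) carry it out. KCC2 is made almost exclusively by neurons and keeps their chloride low, so that GABA and glycine inhibit them, and its loss below a spinal lesion is known for its link with spasticity and pain. SPAK, the kinase encoded by Stk39, is switched on by the WNK kinases and phosphorylates these transporters, which activates NKCC1 and restrains the KCCs.

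Total counts per library lay between 19496602 and 43468509, and each of the 5 genes had at least 184 reads in every library. Levels are given as CPM, the counts scaled to a common library size by TMM. Within every group the libraries differed by more than counting noise, the lowest chi-square per degree of freedom between 2 libraries being 5.94, so none was counted as a repeat of another. The libraries numbered replicate 1 stood apart for Slc12a5 and Slc12a7. Slc12a5 was higher in replicate 1 than in the mean of the others in 7 of 8 groups, with a median difference of 0.59 (log2), and Slc12a7 was higher in 1 of 8 groups, with a median difference of -0.48. +PBS-4w replicate 1 also stood apart over all genes, with a chi-square per degree of freedom of 171 to 262 from the other libraries of its group, against 27.8 to 40.2 among those. The neuron markers were present in every library, and the summed level of the 14 genes ran from 12356 to 14823 CPM in Intact and from 617 to 2799 CPM in sub-SCI. The Intact replicate 1 library held 73.1 CPM of the summed fibroblast markers, against up to 920 CPM in the other Intact libraries.

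Slc12a5 was the most abundant of the 5 genes per kilobase in Intact, at 123 ± 13.3 CPM per kb (SD, n = 4), followed by Slc12a2 at 80.0 ± 0.861, Stk39 at 34.4 ± 2.54, Slc12a4 at 17.1 ± 1.52 and Slc12a7 at 3.40 ± 1.20 CPM per kb. In sub-SCI the order was different. Slc12a2 led at 46.1 ± 3.69 CPM per kb (SD, n = 3), followed by Slc12a4 at 30.5 ± 5.64, Slc12a7 at 21.0 ± 6.58, Stk39 at 11.7 ± 1.68 and Slc12a5 at 8.98 ± 5.25. The gene that ranked first before injury was thus last at the day of transplantation, and all 3 sub-SCI libraries had less Slc12a5 per kb (at most 13.7) than Slc12a7 (at least 15.2).

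**Figure D1:**
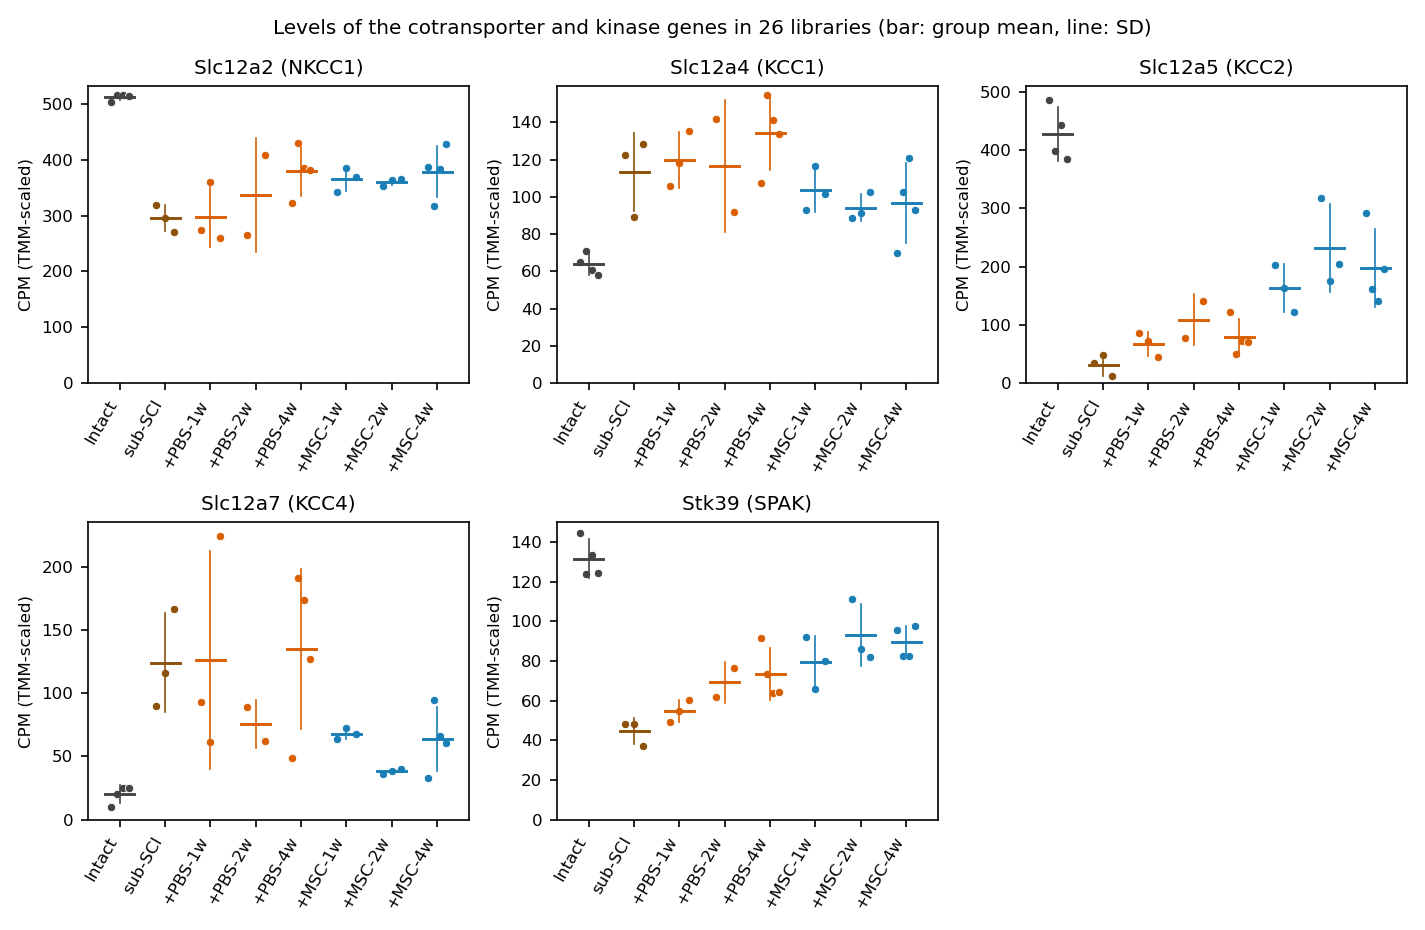
Level of each gene in CPM after TMM scaling (vertical axis, linear, from 0) in each of the 26 libraries (points), by group, with the group mean (horizontal bar) and SD (vertical line). Slc12a5 fell from 385 CPM or more in Intact to 47.4 CPM or less in sub-SCI and lay higher in each +MSC group than in the +PBS group of the same week; Slc12a7 was lowest in Intact.

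Slc12a5 encodes KCC2, the chloride extruder of neurons. It was at 486, 398, 443 and 385 CPM in the 4 Intact libraries and at 34.7, 47.4 and 11.5 CPM in sub-SCI. The +PBS libraries had 86.0, 71.9 and 44.5 CPM at 1 wpt, 77.6 and 140 CPM at 2 wpt, and 123, 49.4, 72.2 and 69.7 CPM at 4 wpt. Every injured library without cells was thus far below every Intact library. The +MSC libraries had 203, 164 and 122 CPM at 1 wpt, 318, 175 and 205 CPM at 2 wpt, and 293, 161, 140 and 197 CPM at 4 wpt. At each week the lowest +MSC library was above the highest +PBS library, and the highest +MSC library was below the lowest Intact library. As a share of the Intact mean, Slc12a5 stood at 7.29% in sub-SCI, at 15.8%, 25.5% and 18.3% in +PBS at 1, 2 and 4 wpt, and at 38.1%, 54.3% and 46.2% in +MSC. In the order of group means, from Intact through +MSC-2w, +MSC-4w, +MSC-1w, +PBS-2w, +PBS-4w and +PBS-1w to sub-SCI, Intact alone did not overlap with its neighbour.

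Slc12a2 encodes NKCC1, the chloride loader that glia and immature neurons also use. It was at 504, 515, 516 and 514 CPM in Intact and at 318, 296 and 271 CPM in sub-SCI. The +PBS libraries had 273, 359 and 260 CPM at 1 wpt, 265 and 409 CPM at 2 wpt, and 322, 430, 385 and 381 CPM at 4 wpt. The +MSC libraries had 343, 385 and 369 CPM at 1 wpt, 353, 365 and 365 CPM at 2 wpt, and 387, 317, 383 and 427 CPM at 4 wpt. All 22 injured libraries lay below all 4 Intact libraries, and the +MSC and +PBS libraries overlapped at every week. Apart from Intact, each group in the order of means overlapped with the next.

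Stk39 encodes SPAK. It was at 145, 124, 134 and 124 CPM in Intact and at 48.4, 48.3 and 37.3 CPM in sub-SCI. The +PBS libraries had 49.4, 54.9 and 60.1 CPM at 1 wpt, 61.9 and 76.6 CPM at 2 wpt, and 91.7, 73.6, 63.8 and 64.3 CPM at 4 wpt. The +MSC libraries had 92.2, 65.9 and 80.2 CPM at 1 wpt, 111, 86.1 and 82.1 CPM at 2 wpt, and 95.9, 82.4, 82.8 and 97.6 CPM at 4 wpt. The +MSC libraries lay above all +PBS libraries at 1 and 2 wpt, while at 4 wpt +PBS-4w replicate 1 lay among them. The order of group means was Intact, +MSC-2w, +MSC-4w, +MSC-1w, +PBS-4w, +PBS-2w, +PBS-1w and sub-SCI, in which Intact, +PBS-2w and +PBS-1w did not overlap with the group after them.

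Slc12a7 encodes KCC4, a widely expressed potassium-chloride cotransporter. It was at 10.04, 20.2, 24.9 and 25.2 CPM in Intact, the lowest value belonging to the replicate with few fibroblast transcripts, and at 89.8, 116 and 167 CPM in sub-SCI. The +PBS libraries had 93.4, 61.1 and 224 CPM at 1 wpt, 89.3 and 62.5 CPM at 2 wpt, and 49.0, 191, 174 and 127 CPM at 4 wpt. The +MSC libraries had 63.5, 72.2 and 68.0 CPM at 1 wpt, 36.5, 38.7 and 39.9 CPM at 2 wpt, and 32.9, 94.6, 66.0 and 60.6 CPM at 4 wpt. Every injured library was above every Intact library. The +MSC libraries were all lower than the +PBS libraries at 2 wpt, and overlapped with them at 1 and 4 wpt. Within +PBS the highest library at 1 wpt, at 224 CPM, and the lowest at 4 wpt, at 49.0 CPM, were far from the others of their group. From the highest mean down, the order was +PBS-4w, +PBS-1w, sub-SCI, +PBS-2w, +MSC-1w, +MSC-4w, +MSC-2w and Intact, and sub-SCI and +MSC-2w did not overlap with the group after them.

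Slc12a4 encodes KCC1, the housekeeping potassium-chloride cotransporter that many tissues use to regulate cell volume. It was at 64.8, 71.1, 60.6 and 58.2 CPM in Intact and at 123, 89.4 and 128 CPM in sub-SCI. The +PBS libraries had 106, 118 and 135 CPM at 1 wpt, 142 and 91.6 CPM at 2 wpt, and 108, 155, 141 and 134 CPM at 4 wpt. The +MSC libraries had 93.0, 117 and 101 CPM at 1 wpt, 88.8, 91.2 and 102 CPM at 2 wpt, and 69.9, 103, 121 and 93.0 CPM at 4 wpt. The +MSC and +PBS libraries overlapped at every week, and 1 injured library, +MSC-4w replicate 1 at 69.9 CPM, lay within the Intact range. Only +MSC-2w, the lowest of the injured groups by mean, did not overlap with its neighbour Intact.

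The promoters of Slc12a5 and Slc12a7, the pair of genes with the largest changes in opposite directions, are shown as RefSeq gives them (build GRCr8, the 250 bases before and 50 bases after the annotated start). The build differs from the one the reads were aligned to. Capitals mark matches, on either strand and overlaps merged, to the GC box GGGCGG, to the E-box CACGTG, the core bound by USF factors, or to the EGR core GCGGGGGCG.
Slc12a5, plus strand of chr3:174115583-174115882: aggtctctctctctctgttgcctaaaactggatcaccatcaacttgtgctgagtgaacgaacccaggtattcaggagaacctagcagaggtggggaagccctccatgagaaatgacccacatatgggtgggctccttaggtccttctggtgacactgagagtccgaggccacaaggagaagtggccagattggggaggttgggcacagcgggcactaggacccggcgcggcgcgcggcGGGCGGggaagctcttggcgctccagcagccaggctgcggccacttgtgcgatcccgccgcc
Slc12a7, minus strand of chr1:31354576-31354875: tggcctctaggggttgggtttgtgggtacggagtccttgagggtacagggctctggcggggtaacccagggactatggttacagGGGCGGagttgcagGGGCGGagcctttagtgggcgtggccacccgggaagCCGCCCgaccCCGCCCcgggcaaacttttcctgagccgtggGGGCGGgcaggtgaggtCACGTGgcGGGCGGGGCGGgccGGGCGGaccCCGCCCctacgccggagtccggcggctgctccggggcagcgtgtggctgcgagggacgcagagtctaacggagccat
The Slc12a5 promoter held 1 GC box and no CACGTG, and the Slc12a7 promoter 9 GC boxes and 1 CACGTG. Their GC contents were 61.3% and 71%, against a median of 51.7% over the 33469 RefSeq promoters of this length. A GC box was also present in the promoters of Slc12a2 (3 matches), Slc12a4 (5 matches) and Stk39 (2 matches), and no promoter of the 5 genes held the EGR core. Over all promoters of this length 33.1% held a GC box, 6.42% held CACGTG and 2.73% held the EGR core. The matches describe letters in these windows only.

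Injury changed all 5 genes. At the day of transplantation Slc12a5, Stk39 and Slc12a2 were lower in sub-SCI than in Intact, and Slc12a7 and Slc12a4 were higher. By the quasi-likelihood test of edgeR, with p-values adjusted after Benjamini and Hochberg over the 17990 genes, Slc12a5 fell by 3.78 on the log2 scale (SE 0.439, adjusted p = 2.22e-07), Stk39 fell by 1.56 (SE 0.154, adjusted p = 2.34e-08) and Slc12a2 fell by 0.80 (SE 0.139, adjusted p = 4.09e-05). Slc12a7 rose by 2.62 (SE 0.437, adjusted p = 2.34e-05) and Slc12a4 rose by 0.83 (SE 0.174, adjusted p = 0.000283). Calls were common in this comparison, since at an adjusted p under 0.05 30.5% of all genes tested were higher and 30.9% lower. In bulk tissue, fewer cells of a type and less RNA per cell cannot be told apart. The labels do not name the animals, so the p-values measure the spread between libraries, part of which may be technical.

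The same directions were called for all 5 genes in +PBS against Intact at each week. These comparisons share the Intact libraries. For Slc12a5 the log2 differences from Intact were -2.66 (SE 0.414), -1.97 (SE 0.470) and -2.45 (SE 0.367) at 1, 2 and 4 wpt, for Stk39 -1.26, -0.93 and -0.84, for Slc12a2 -0.79, -0.61 and -0.43, for Slc12a7 2.65, 1.91 and 2.75, and for Slc12a4 0.91, 0.87 and 1.08. As background, the higher genes made up 26.7% of those tested and the lower genes 26.4% in the first week, 19.7% and 17% in the second, and 28.6% and 23.9% in the last. The +PBS-2w group has 2 libraries. Without replicate 1 it is a single library, assumed to vary like the other groups, from which the spread then comes, and it gave -1.58 for Slc12a5, 1.66 for Slc12a7, -0.30 for Slc12a2 and 0.55 for Slc12a4, none of which passed (adjusted p = 0.0884, 0.0658, 0.27 and 0.134), and only Stk39 stayed called.

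Against sub-SCI, the vehicle group at 4 wpt had more Slc12a5 and more Stk39. Slc12a5 rose by 1.33 on the log2 scale (SE 0.392, adjusted p = 0.0163) and Stk39 rose by 0.72 (SE 0.15, adjusted p = 0.00145). Slc12a2 differed by 0.36 (SE 0.137, adjusted p = 0.0574), Slc12a4 by 0.24 (95% interval -0.12 to 0.61) and Slc12a7 by 0.12 (-0.76 to 1.01). In this comparison 13.4% of genes were higher and 11.6% lower. The Slc12a5 difference was 0.93 (adjusted p = 0.0928) without sub-SCI replicate 3, whose 11.5 CPM was the lowest value of the gene, and 1.07 (0.0708) without the replicate 1 libraries. Slc12a2 passed without +PBS-1w replicate 2 (0.36), +PBS-2w replicate 1 (0.35) or 2 (0.36) or +PBS-4w replicate 1 (0.42), with adjusted p values between 0.0178 and 0.0409.

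**Figure D2:**
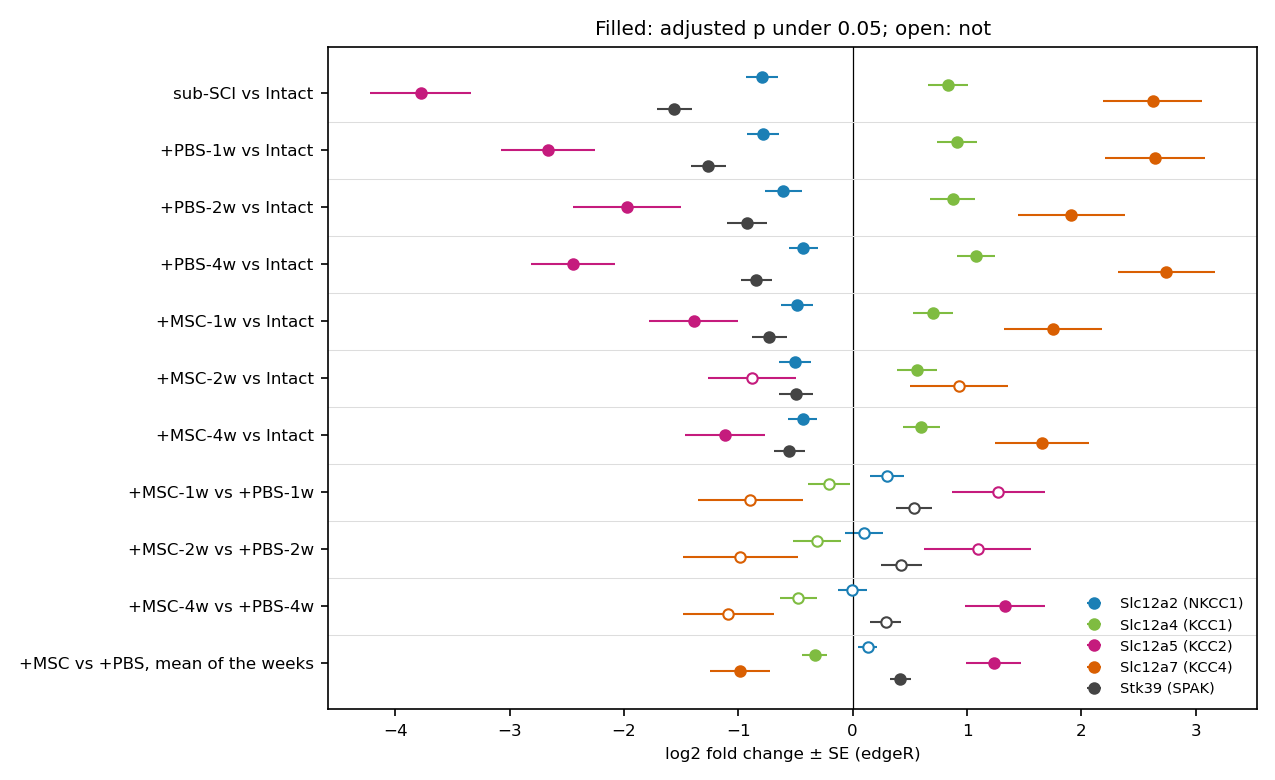
Log2 fold change of each gene (horizontal axis, bars are SE, edgeR) in 11 comparisons (rows); filled points passed an adjusted p of 0.05 and open points did not. Injury moved Slc12a5, Stk39 and Slc12a2 down and Slc12a7 and Slc12a4 up, and the +MSC against +PBS differences pointed the other way, except that of Slc12a2 at 4 wpt, which was near 0.

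hUC-MSC transplantation was set against vehicle at the same week. Slc12a5 was the single gene of the 5 called at a single week, at 4 wpt, where it was 1.33 higher on the log2 scale in +MSC (SE 0.354, adjusted p = 0.0365). At 1 wpt it was 1.27 higher (SE 0.408, 95% interval 0.43 to 2.12, adjusted p = 0.130) and at 2 wpt 1.09 higher (SE 0.465, 0.13 to 2.06, adjusted p = 0.358), which did not pass. The difference at 4 wpt minus that at 1 wpt was 0.06 (SE 0.532, 95% interval -1.05 to 1.16), and none of the 5 genes had a difference between weeks that passed (0 called in each of 3 tests, 0 at an unadjusted p under 0.05, and 0 by DESeq2 in the test of 4 against 1 wpt). In each of the 3 edgeR tests 0% of the 17990 genes were called higher and 0% lower. The absence of a call therefore does not show that the differences were equal between weeks. The call at 4 wpt was lost when any of 5 libraries was left out: the log2 difference was 1.08 without +MSC-4w replicate 1 (adjusted p = 0.157), 1.34 without its replicate 4 (0.0737), and 1.16, 1.29 and 1.28 without +PBS-4w replicates 2, 3 and 4 (0.113, 0.0809 and 0.0853). With edgeR on this pair of groups alone it was 1.35 (adjusted p = 0.0947).

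The background of these comparisons was low. The share of tested genes called higher was 0.0389% at 1 wpt, 0% at 2 wpt and 3.07% at 4 wpt, and the share called lower was 0.0611%, 0% and 0.928%. With edgeR, 3219, 2219 and 4048 genes had an unadjusted p under 0.05 at 1, 2 and 4 wpt, and the smallest adjusted p at 2 wpt was 0.159. Of the 5 genes, 0 were called at 1 wpt and 0 at 2 wpt, and 2 had an unadjusted p under 0.05 at each of these weeks. DESeq2 on all libraries called 1 (Stk39) and 0, and DESeq2 on the pair of groups alone called 2 at 1 wpt (Slc12a5 and Stk39) and 2 at 2 wpt (Slc12a5 and Slc12a7). DESeq2 also called more of all genes than edgeR did, on all libraries 2.19% higher and 2.47% lower at 1 wpt and 0.272% and 0.833% at 2 wpt, and on the pair of groups 5.03% and 4.22% at 1 wpt and 3.09% and 4.47% at 2 wpt.

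Averaged over the 3 weeks in the same model, 4 of the 5 genes differed between +MSC and +PBS. Slc12a5 was higher by 1.23 on the log2 scale (SE 0.239, adjusted p = 0.00166) and Stk39 by 0.42 (SE 0.091, adjusted p = 0.00354). Slc12a7 fell by 0.99 (SE 0.263, adjusted p = 0.0108) and Slc12a4 fell by 0.33 (SE 0.108, adjusted p = 0.0306). For Slc12a2 the difference was 0.13 (95% interval -0.04 to 0.31, adjusted p = 0.277). In this average 12.3% of genes were higher and 10.9% lower. The calls of Slc12a5 and Stk39 held in all 33 other fits. That of Slc12a7 was lost without +PBS-2w replicate 1 (-0.92, adjusted p = 0.0536), and Slc12a2 passed without +PBS-2w replicate 2 (0.25, adjusted p = 0.038).

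The Slc12a4 average was the least stable of these. Its call was lost when the replicate 1 libraries were set aside (-0.20, adjusted p = 0.189) and when any of 7 single libraries was left out, namely +MSC-1w replicate 1 (-0.31) or 3 (-0.33), +MSC-2w replicate 1 (-0.32) or 2 (-0.32), +PBS-1w replicate 3 (-0.30), +PBS-2w replicate 1 (-0.23) or +PBS-4w replicate 2 (-0.31). The adjusted p values then ran from 0.0503 to 0.194.

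At single weeks the differences of the other genes were as follows. Slc12a7 differed by -0.89 (95% interval -1.85 to 0.06), -0.98 (-2.03 to 0.06) and -1.09 (-1.92 to -0.26) at 1, 2 and 4 wpt. Stk39 differed by 0.54 (0.21 to 0.86), 0.43 (0.06 to 0.79) and 0.29 (0.01 to 0.57). Slc12a4 differed by -0.21 (-0.60 to 0.18), -0.31 (-0.74 to 0.12) and -0.48 (-0.81 to -0.14), and Slc12a2 by 0.30 (-0.0042 to 0.60), 0.10 (-0.24 to 0.44) and -0.0025 (-0.27 to 0.26). None of these passed after adjustment over all genes. Without +PBS-4w replicate 1, which had the most Slc12a5 and the least Slc12a7 of its group, the differences at 4 wpt were -1.39 for Slc12a7 (adjusted p = 0.0161), -0.59 for Slc12a4 (0.0232) and 0.39 for Stk39 (0.0414), and without it Stk39 also passed at 1 wpt (0.49, adjusted p = 0.0493), where that library enters through the shared spread.

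The treated cord was also compared with Intact, and these comparisons share the Intact libraries with those of +PBS. All 5 genes were called at 1 wpt and at 4 wpt. Slc12a5 was -1.39 from Intact at 1 wpt (SE 0.390, adjusted p = 0.00948), -0.88 at 2 wpt (SE 0.383, adjusted p = 0.114) and -1.11 at 4 wpt (SE 0.351, adjusted p = 0.02). Slc12a7 was 1.75, 0.93 and 1.66 from Intact, and the value at 2 wpt did not pass (adjusted p = 0.136). Stk39 was at -0.73, -0.50 and -0.55, Slc12a2 at -0.49, -0.51 and -0.44 and Slc12a4 at 0.70, 0.56 and 0.60, all called. Of all genes, 18.3%, 12.7% and 17.7% were called higher than Intact in the successive weeks, and 14.8%, 6.44% and 13.6% lower. That Slc12a5 and Slc12a7 missed the threshold at 2 wpt does not show a return to the Intact level, since the 95% intervals of the differences, -1.68 to -0.08 and 0.04 to 1.82, did not include 0.

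Several of these calls depended on 1 library. At 1 wpt the Slc12a5 call was lost without +MSC-1w replicate 3 (-1.22, adjusted p = 0.0564). At 2 wpt the Slc12a4 call was lost without Intact replicate 3 or 4 (0.54 and 0.52) or +MSC-2w replicate 2 or 3 (0.59 and 0.50), and the Stk39 call without Intact replicate 1 (-0.42) or +MSC-2w replicate 2 or 3 (-0.45 and -0.42). At 4 wpt the Slc12a5 call was lost without Intact replicate 1 (-1.03) or +MSC-4w replicate 2 or 3 (-1.03 and -0.98), and the Slc12a2 call without +MSC-4w replicate 2 (-0.36, adjusted p = 0.0569).

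The ratio of Slc12a2 to Slc12a5 transcripts, the loader against the extruder, was taken within each library, so that it does not depend on library size. Per kilobase it was 0.655 ± 0.073 in Intact (SD, n = 4, range 0.562 to 0.725), so the extruder was in excess. In sub-SCI it was 3.39, 4.97 and 12.8 across the 3 libraries. The +PBS groups ranged from 1.72 to 3.17 at 1 wpt, from 1.58 to 1.85 at 2 wpt and from 1.43 to 4.72 at 4 wpt, and the +MSC groups from 0.916 to 1.64, from 0.602 to 1.13 and from 0.718 to 1.48. Per kilobase the loader was thus in excess in every sub-SCI and +PBS library, and the +MSC libraries lay on both sides of 1. The side of 1 depends on the division by gene length. Without it the count ratio was above 1 in every library, from 1.04 to 1.34 in Intact. On the log2 scale of the count ratio, the +MSC and +PBS ranges did not overlap at 1 wpt (0.76 to 1.59 against 1.67 to 2.54) or at 2 wpt (0.15 to 1.06 against 1.54 to 1.77), and overlapped at 4 wpt (0.41 to 1.45 against 1.39 to 3.12). Averaged over the weeks the log2 ratio was lower in +MSC by a difference of -1.11, with a pooled SD within groups of 0.546. A transcript ratio is not a ratio of active transporters, and in bulk tissue it need not be the ratio of any cell type.

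**Figure D3:**
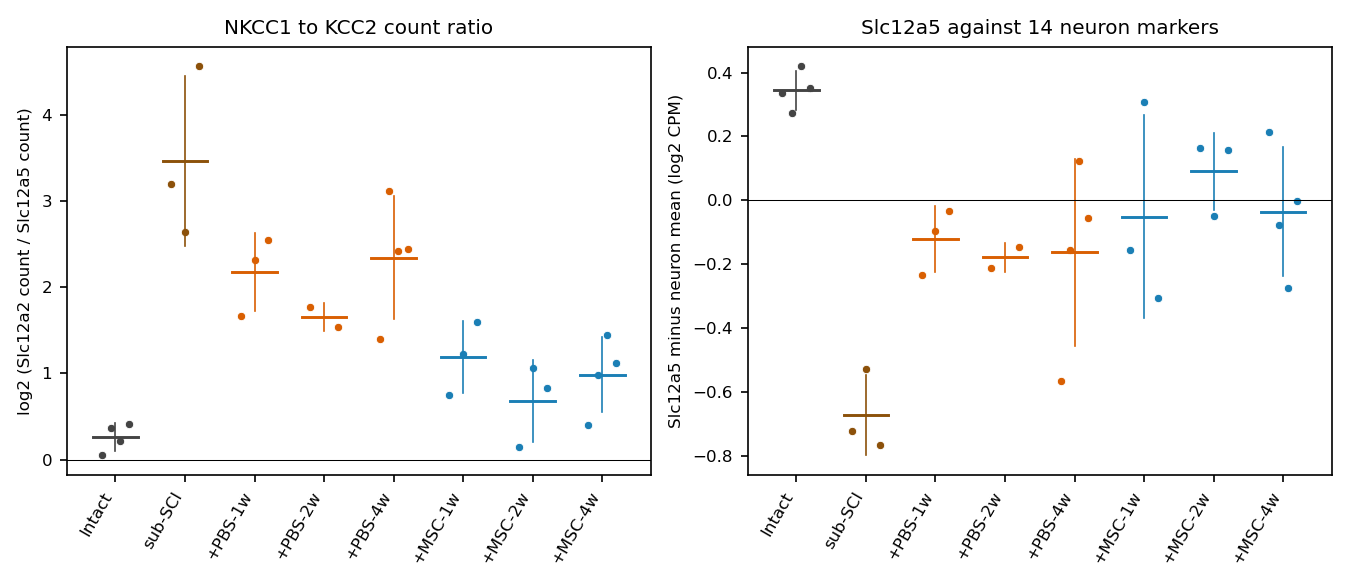
Left, log2 of the Slc12a2 count over the Slc12a5 count, not divided by gene length; right, Slc12a5 minus the mean of 14 neuron markers (log2 CPM). Points are libraries, bars are group means and lines SD. The ratio ran from 0.05 to 0.42 in Intact and from 2.64 to 4.56 in sub-SCI; on the right, sub-SCI was lowest (-0.77 to -0.53) and Intact highest (0.27 to 0.42).

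Slc12a5 moved with the neuron markers. All 14 of these genes were called lower in sub-SCI than in Intact (median log2 difference -2.94, range -3.58 to -1.59), against 30.9% of all genes. In the average of the weeks all 14 were higher in +MSC than in +PBS (median 1.01, range 0.76 to 1.28). Of these 13 were called, against 12.3% of all genes. The summed neuron marker level ranged from 1522 to 3493 CPM in +PBS-1w, from 3378 to 6501 CPM in +PBS-2w, from 2192 to 7885 CPM in +PBS-4w, where replicate 1 held 7885 CPM and the others at most 3028 CPM, from 4671 to 9342 CPM in +MSC-1w, from 7643 to 11312 CPM in +MSC-2w and from 7542 to 9393 CPM in +MSC-4w. Without +PBS-4w replicate 1 the Slc12a5 difference between +MSC and +PBS was 1.6 at 4 wpt (adjusted p = 0.0075) and 1.31 in the average (adjusted p = 0.000363). Over the 26 libraries the log2 level of Slc12a5 and the mean of the neuron markers had a Pearson r of 0.982, and after subtracting the group means r was 0.938. Other lists were correlated with Slc12a5 too. For the oligodendrocyte markers r was 0.843 over libraries and 0.636 within groups, and for the fibroblast markers -0.848 and -0.529. For the astrocyte markers it was 0.706 and 0.125, and for the microglia and macrophage markers -0.706 and -0.136. These libraries share their groups, and the values share depth and scaling.

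Taken against the neuron mean, Slc12a5 was 0.34 ± 0.060 above it in Intact (log2, SD, n = 4) and -0.67 ± 0.13 from it in sub-SCI (n = 3), and these groups did not overlap. The libraries of the other groups, from -0.56 to 0.31, reached into both ranges. Between +MSC and +PBS the weekly difference of this quantity averaged 0.16, less than its pooled SD of 0.19. The part of the neuron content in the Slc12a5 difference between +MSC and +PBS was not tested.

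Slc12a7 moved with the fibroblast markers and against the oligodendrocyte and neuron markers. All 6 fibroblast markers were called higher in sub-SCI than in Intact (median log2 difference 3.75), against 30.5% of all genes. In the average of the weeks all 6 were called lower in +MSC than in +PBS (median -1.29, range -1.68 to -0.92), against 10.9% of all genes. Their summed level was 6491 to 13392 CPM in sub-SCI and, at 1, 2 and 4 wpt, 3164 to 7448, 1179 to 1700 and 970 to 3597 CPM in +PBS and 1574 to 2473, 288 to 679 and 459 to 1948 CPM in +MSC. The Pearson r of Slc12a7 with the mean of these markers was 0.898 over 26 libraries and 0.847 after subtracting the group means. The microglia and macrophage markers also rose after injury, 9 of 9 called higher in sub-SCI, against 30.5% of all genes. Their r with Slc12a7 was 0.763 over libraries and 0.286 within groups. With the oligodendrocyte markers r was -0.925 over libraries and -0.797 within groups, with the neuron markers -0.874 and -0.748, and with the Schwann cell markers 0.655 and 0.645. The part of these cell contents in the Slc12a7 differences was not tested.

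**Figure D4:**
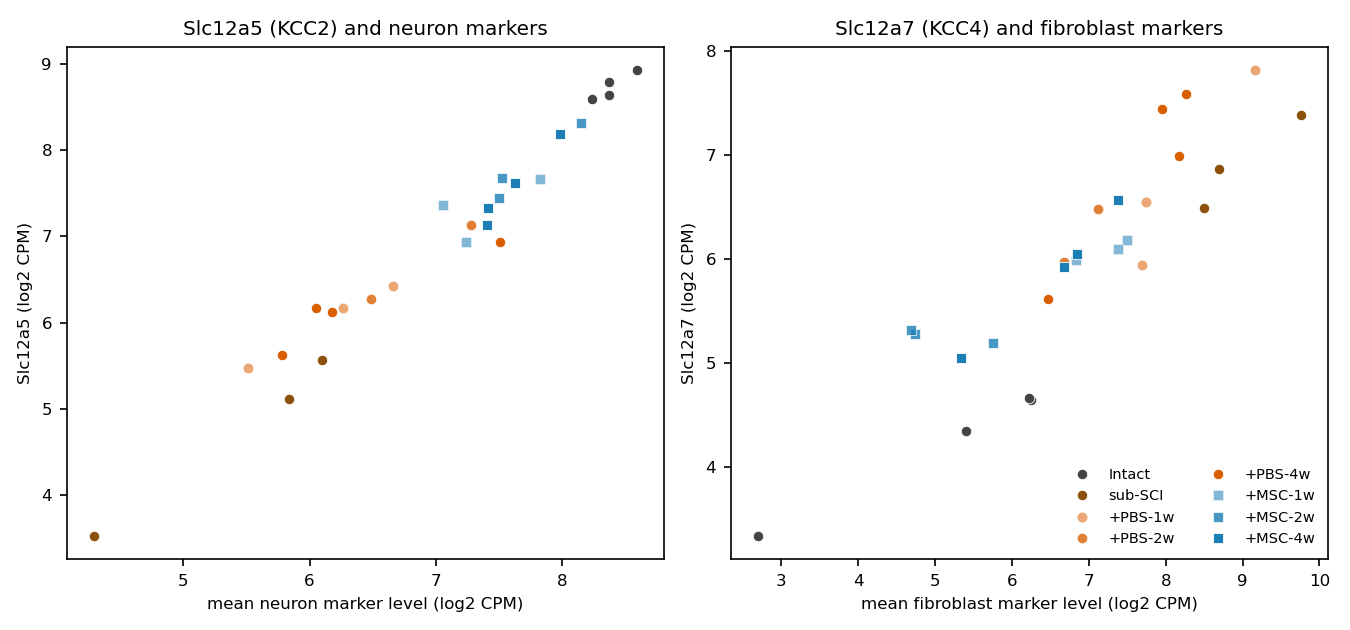
Left, Slc12a5 against the mean of 14 neuron markers; right, Slc12a7 against the mean of 6 fibroblast markers, all in log2 CPM, 1 point per library, coloured by group (squares are +MSC). The Pearson r over the 26 libraries was 0.982 on the left and 0.898 on the right.

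Within groups, the correlations of the other genes with the marker lists were weaker than those of Slc12a5 with the neuron and Slc12a7 with the fibroblast markers. Stk39 had an r of 0.916 with the neuron markers over libraries and 0.683 within groups, and of -0.822 and -0.558 with the microglia and macrophage markers. Slc12a2 had its highest positive r over libraries with the oligodendrocyte markers, 0.799, which was 0.547 within groups. All 8 of these markers were called lower in sub-SCI (median -1.29), against 30.9% of all genes. With the microglia and macrophage markers its r was -0.814 over libraries and -0.159 within groups. Slc12a4 had an r of -0.796 with the neuron markers over libraries and -0.734 within groups, and its highest positive r over libraries was with the microglia and macrophage markers, 0.732, which was 0.054 within groups. Among the 5 genes themselves, Slc12a5 and Stk39 had an r of 0.927 over libraries and 0.604 within groups, Slc12a5 and Slc12a4 -0.785 and -0.756, Slc12a5 and Slc12a7 -0.856 and -0.672, and Slc12a2 and Slc12a5 0.708 and 0.176.

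The genes most like each of the 5, by Pearson r of log2 CPM over the 26 libraries, were taken from the 3 highest of all genes tested. For Slc12a5 they were Iqsec3 (0.995), Atp2b2, a calcium pump of the plasma membrane (0.995), and Pacsin1, a neuronal endocytosis protein that is also among the KCC2 partners below (0.994). For Slc12a7 they were Parp3 (0.983), Arap1 (0.972) and Antxr2 (0.970). For Stk39 they were Lrrc49 (0.980), Patj, a tight junction scaffold (0.975), and Pnkd (0.974). For Slc12a4 they were Ctnna1, which encodes alpha-catenin (0.946), and Mxd4 (0.924), and for Slc12a2 Frs2, a growth factor receptor adaptor (0.927), Spag9 (0.894) and Tcaf1 (0.893). The values were highest for Slc12a5 and lowest for Slc12a2.

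Other genes of chloride handling were described by 5 lists of 51 genes, of which 49 were tested. Against Intact, 9 were higher and 27 lower in sub-SCI (median log2 difference -0.49, against -0.02 over all genes tested), where 30.5% of all genes were higher and 30.9% lower. In +MSC against +PBS averaged over the weeks, 15 were higher and 4 lower (median 0.18, against -0.02 over all genes), where 12.3% of all genes were higher and 10.9% lower. Of the 15 that were higher, 15 had been lower in sub-SCI than in Intact, a comparison that shares no library with this one. This was common, since 97.3% of all genes higher in this average were lower in sub-SCI. In +PBS against Intact 9, 6 and 12 of the 49 were higher and 22, 17 and 20 lower at the successive weeks, where the shares over all genes were 26.7%, 19.7% and 28.6% and 26.4%, 17% and 23.9%. In +MSC against Intact 4, 4 and 5 were higher and 16, 10 and 14 lower, where those shares were 18.3%, 12.7% and 17.7% and 14.8%, 6.44% and 13.6%. In +MSC against +PBS at single weeks 0, 0 and 6 were higher and 0, 0 and 0 lower with edgeR at 1, 2 and 4 wpt, with 17, 6 and 23 genes at an unadjusted p under 0.05, and over all genes 3.07% were higher and 0.928% lower at 4 wpt. DESeq2 on all libraries called 4, 1 and 13 of the list genes higher and 0, 0 and 3 lower, where it called 2.19%, 0.272% and 6.29% of all genes higher and 2.47%, 0.833% and 3.74% lower.

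The other transporters of the family did not follow a single direction. Of 5 further members, 3 were lower (30.9% of all genes) and 1 was higher (30.5% of all genes) in sub-SCI, the higher one being Slc12a9 (log2 difference 1.06, adjusted p = 8.98e-07). In +MSC against +PBS 2 were higher in the average (12.3% of all genes), and Slc12a3, the thiazide-sensitive sodium-chloride cotransporter, was 1.52 higher at 4 wpt (adjusted p = 0.00771). Its levels were low, with means of 1.97 CPM in +PBS-4w and 5.69 CPM in +MSC-4w. Slc12a1 and Slc12a8 were lower still, with means of 0.666 and 0.536 CPM in Intact.

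In the WNK-SPAK/OSR1 cascade, which controls the phosphorylation of the transporters, 6 of 10 genes were lower and 1 higher in sub-SCI, against 30.9% and 30.5% of all genes, and 3 were higher and 1 lower in +MSC in the average, against 12.3% and 10.9%. Wnk2, a WNK kinase of the nervous system, fell by 2.83 on the log2 scale in sub-SCI (adjusted p = 1.06e-09), rose by 1.31 from sub-SCI to +PBS-4w (adjusted p = 0.000128) and was 0.75 higher in +MSC than in +PBS (adjusted p = 0.000642). Wnk4 was the lower one, by a difference of -0.67 (adjusted p = 0.038). From sub-SCI to +PBS-4w Klhl2, which targets WNK kinases for degradation, fell by 0.53 (adjusted p = 0.00119) and Nedd4l, a ubiquitin ligase, fell by 0.42 (adjusted p = 0.00622).

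Of the 13 KCC2 partners and regulators, 5 were lower and 4 higher in sub-SCI, shares near the 30.9% and 30.5% of all genes, and 3 were higher and 1 lower in +MSC in the average, against 12.3% and 10.9% of all genes. Epb41l1, a cytoskeletal adaptor of neurons, was -2.63 from Intact in sub-SCI (adjusted p = 1.24e-08) and 0.83 higher in +MSC (adjusted p = 0.000757). Pacsin1 was 1.11 higher in +MSC (adjusted p = 0.000747). Neto2, an auxiliary protein that binds KCC2, was 1.04 higher at 4 wpt (adjusted p = 0.00498), where Pacsin1 was 1.30 higher (adjusted p = 0.0128) and Epb41l1 0.90 higher (adjusted p = 0.0201). Prkcd, a protein kinase C, took the opposite course, 2.26 higher in sub-SCI (adjusted p = 2.06e-10) and -0.48 in +MSC against +PBS (adjusted p = 0.0018). Ntrk2, the BDNF receptor, was 1.25 higher in +PBS-4w than in sub-SCI (adjusted p = 0.000394), while Arhgef7 fell by 0.33 (adjusted p = 0.0218) and Capn2, a calpain protease, fell by 0.26 (adjusted p = 0.0347).

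Among 13 other chloride channels and exchangers, 7 were lower and 3 higher in sub-SCI, against 30.9% and 30.5% of all genes, and 4 were higher and 2 lower in the average of +MSC against +PBS, where 12.3% and 10.9% of all genes were. Slc4a3, a chloride-bicarbonate exchanger, was -1.91 from Intact in sub-SCI (adjusted p = 3.49e-11), rose by 0.93 from sub-SCI to +PBS-4w (adjusted p = 8.37e-06) and was 0.42 higher in +MSC (adjusted p = 0.000513). Ano6, a scramblase and chloride channel, was 1.82 higher in sub-SCI (adjusted p = 1.75e-06) and -0.49 in +MSC (adjusted p = 0.0239), and Slc26a11 was 1.80 higher (adjusted p = 1.47e-05) and -0.56 (adjusted p = 0.0271).

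The sodium-potassium pump provides the ion gradients that drive the cotransporters. Of its 8 subunit and regulator genes, 6 were lower and 0 higher in sub-SCI with edgeR, where 6 had an unadjusted p under 0.05, and 3 were higher and 0 lower in +MSC in the average, with 6 at an unadjusted p under 0.05. The shares of all genes were 30.9% lower and 30.5% higher in sub-SCI, and 12.3% higher and 10.9% lower in the average. From sub-SCI to +PBS-4w 5 of the 8 pump genes were higher and 0 lower, with 6 at an unadjusted p under 0.05, and over the 5 lists 15 genes were higher and 4 lower, where 13.4% of all genes were higher and 11.6% lower.

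**Figure D5:**
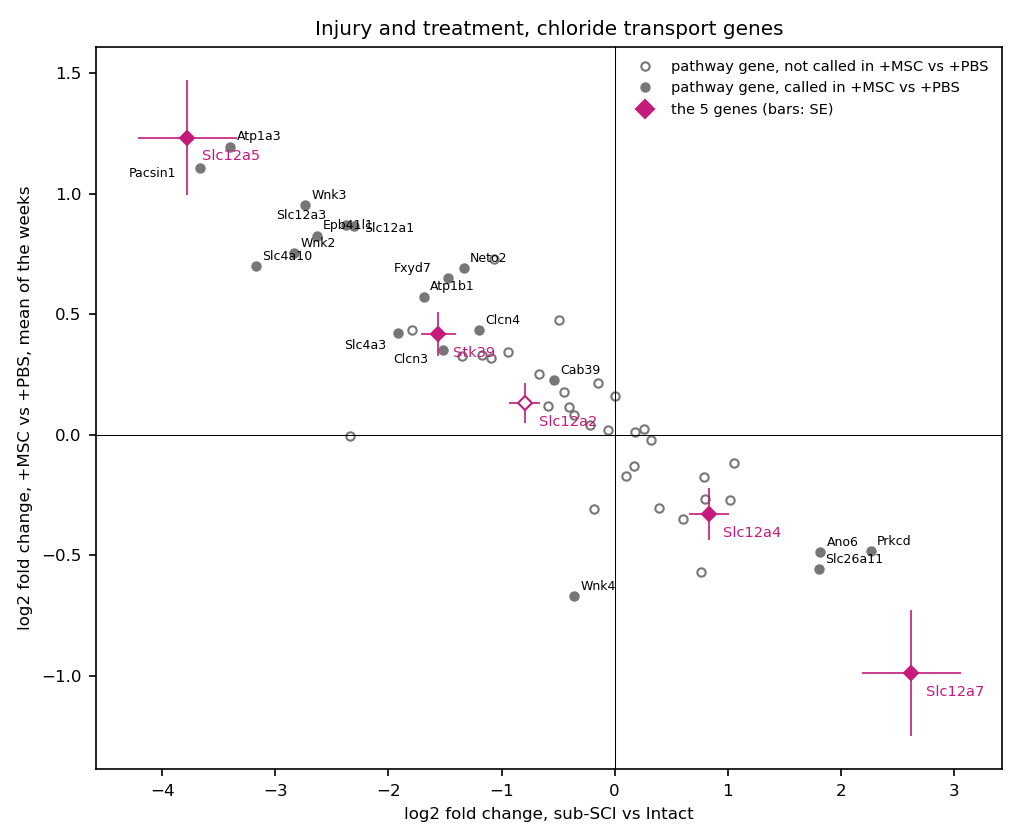
Log2 fold change after injury (sub-SCI against Intact, horizontal) and with treatment (+MSC against +PBS, mean of the weeks, vertical) for the 5 genes (diamonds, bars are SE) and 49 genes of chloride handling (circles; filled where called in the vertical comparison). Slc12a5 lies at -3.78 and 1.23, Slc12a7 at 2.62 and -0.99, and the 15 genes called higher with treatment all lie left of 0.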

How the data were processed

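RNA sequencing of 26 spinal cord libraries was analysed, grouped by their labels. The authors deposited raw counts per gene. They trimmed reads with Trim Galore 0.5.0, removed those that HISAT2 2.1.0 mapped to the human genome, aligned the rest to rat Rnor6, filtered for proper pairs (SAMtools 1.9) and counted them using featureCounts 1.6.4; conserved rat reads may have been lost. The annotation release and strand setting are not given in the sources used here, so antisense and overlapping genes cannot be separated. Tests used edgeR 4.0.16 in R 4.3.3 (TMM, filterByExpr, 17990 of 32883 genes, 8 groups in 1 model, glmQLFit and glmQLFTest) and adjusted over all genes; intervals are 95%. DESeq2 1.42.0 and edgeR variants served as alternatives, and the procedure was tested on simulated data. Log2 CPM used a prior count of 2. The members, lists and alternatives were chosen with earlier results of these data known. Named list genes were those with an adjusted p under 0.05, at most 4 per comparison and direction, in order of p; list genes were named in 4 of the comparisons. A gene was "called" at an adjusted p under 0.05. The study's thresholds (absolute log2 fold change above 1, adjusted p under 0.01) were an alternative, applied to the edgeR fit, whereas the study used DESeq2. The study's methods and the labels differ on the number of +MSC-2w libraries. The labels' 3 were used, the number that the study's own Results also give. Those Results also describe a +PBS-2w sample that grouped with +MSC-2w as an outlier. Klhl3, Pecam1 and Foxj1 were not analysed here, and some genes that the naming rules pick are not reported here. Promoters came from RefSeq (GRCr8), and all 5 genes matched by symbol.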

Additional observations from a re-analysis of the deposited data

How the results depend on the processing

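Counts are of the 5 genes called. The share of all genes called also moves with the setting. It is given above only for the main fit and for DESeq2 in +MSC against +PBS. The other counts here have no such share beside them and describe only how the calls of these genes changed. The thresholds of the study (absolute log2 fold change above 1, adjusted p under 0.01) were applied here to the edgeR fit. The study used DESeq2 with them and lists KCC2 among its hUC-MSC-activated genes. With these thresholds on edgeR the counts were 3 in sub-SCI against Intact and 3, 2 and 3 in +PBS against Intact at 1, 2 and 4 wpt. In +MSC against Intact they were 2, 0 and 1 at these weeks. In +MSC against +PBS they were 0 at 4 wpt and 1 in the average of the weeks, and in +PBS-4w against sub-SCI 0. With the replicate 1 libraries set aside, 3 were called in +PBS-2w against Intact and 3 in +MSC-4w against +PBS-4w, and with a term for them 5 in +MSC-2w against Intact. In that comparison edgeR and DESeq2 on the pair of groups alone each called 5. In +MSC against +PBS, DESeq2 on all libraries called 1 at 1 wpt, and on the pair of groups 2 at 1 wpt and 2 at 2 wpt, with Slc12a5 at 1.25 and 1.08. With edgeR on the pair of groups, which leaves fewer libraries to estimate the spread, 0 were called at 4 wpt (Slc12a5 1.35, adjusted p = 0.0947) and 0 in +PBS-4w against sub-SCI. Leaving out each library in turn gave 1 to 5 in +PBS-2w against Intact, 0 to 1 and 0 to 4 in +MSC against +PBS at 1 and 4 wpt, 2 to 5 in the average, 1 to 3 and 3 to 5 in +MSC against Intact at 2 and 4 wpt, and 1 to 3 in +PBS-4w against sub-SCI. Slc12a5 at 4 wpt then ran from 1.08 to 1.6 (highest without +PBS-4w replicate 1), and its difference between 4 and 1 wpt from -0.19 to 0.37.

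The sign was not fixed for small differences. In +MSC-4w against +PBS-4w, Slc12a2 was at 0.0019 and 0.0092 with DESeq2 on all libraries and on the pair of groups, 0.0085 with edgeR on the pair, 0.0022 with median-of-ratios size factors, 0.020 without a filter, 0.0048 with the replicate block, 0.0027 with a replicate 1 term and -0.10 to 0.073 with a library left out. At 2 wpt Slc12a2 ran from -0.17 to 0.44 and Slc12a4 from -0.59 to 0.048 with a library left out, and with the replicate 1 libraries set aside they were at -0.18 and 0.068. In +PBS-4w against sub-SCI Slc12a7 ran from -0.092 to 0.39. Its difference between 4 and 1 wpt ran from -0.90 to 0.14, and that of Stk39 was 0.045 without the replicate 1 libraries. The cause was not tested. Same-numbered libraries did not deviate together throughout (r over 0.1 in 18 of 28 pairs for number 1, 5 of 28 for number 2, 7 of 21 for number 3 and 1 of 3 for number 4). Among pairs with different numbers it was 32 of 214. The replicate 1 libraries did deviate together, with a median r of 0.17 against -0.025 for different numbers. Since this did not hold for every number, the numbers were not taken as pairs. With the replicate block Slc12a5 was at 1.32 at 4 wpt and 1.27 in the average, with no count of calls changed. Each of the 5 genes had 184 reads or more in every library, and an effect of depth was not tested.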
